A study of Drosophila melanogaster with 21 samples.

Results

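The mitochondrial ribosomal protein genes were taken as those whose symbol begins with mRpL, for the large subunit, or mRpS, for the small subunit. The RNA table of L1 lamina neurons held 71 of them among 7076 genes, 46 of the large and 25 of the small subunit. RefSeq names 73 genes in this way, and mRpL53 and mRpS21 were not analysed here. All 71 passed the filter on low values. L1 neurons are glutamatergic interneurons of the Drosophila lamina, the first relay of the visual system, which receive photoreceptor input and wire up during pupal life.

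The cells were wild-type L1 neurons from the brain, obtained by fluorescence-activated cell sorting. Bulk RNA-seq, made with SMART-seq2, had 2 libraries at 40 h, 3 at 60 h and 2 at 72 h after puparium formation (APF), and bulk ATAC-seq, which reads open chromatin, had 2 libraries at each age. The groups shared the genotype and differed by age alone, per the labels. The markers of the sort, the number of pupae per library and whether libraries came from separate animals were not given, so p-values here measure the spread between libraries only. The 8 single-cell samples of the series were not analysed here.

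Mitochondria translate the few proteins encoded by their own DNA on a ribosome that descends from a bacterial one. Its rRNAs, mt:lrRNA and mt:srRNA, are made inside the organelle, while its proteins are encoded in the nucleus, made in the cytosol and imported. The products are core subunits of the respiratory chain and the ATP synthase, on which neurons rely for much of their ATP. In this list, 29 large and 15 small subunit genes belonged to families shared with bacteria, and the other 17 large and 10 small subunit genes belonged to families known from mitochondria. They lay on all major chromosome arms, with 12 on 2L, 11 on 2R, 17 on 3L, 20 on 3R and 11 on X.

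RNA levels are given in RPKM, here the reads of a gene per kilobase and per effective library size, the divisor recovered from the values. Each member had between 255 and 5870 reads per library, with a median of 1393. Library totals over genes lay between 22.5 and 39.5 M reads for RNA, and between 12.7 and 19.8 M reads in peaks for ATAC. The divisor differed from these totals. For RNA, total over divisor was 0.857 and 0.832 (40 h), 1.005, 1.019 and 0.998 (60 h), then 1.191 and 1.102 (72 h). For ATAC this ratio was 1.079 and 1.25 (40 h), 0.983 and 0.984 (60 h), then 0.870 and 0.880 (72 h). How the divisor was set was not tested, and changes between ages depend on it. Of 5 L1 and neuron markers, the transcription factor gene svp stood between 109 and 139 RPKM in every library, VGlut, nSyb and Syt1, of transmitter loading and release, rose at 60 h against 40 h and again at 72 h against 60 h, and the neuronal RNA-binding protein gene elav fell at 60 h against 40 h. The summed level of 9 glial markers was 79.7 and 95.3 RPKM at 40 h, 125, 86.8 and 116 RPKM at 60 h, and 570.1 and 1702 RPKM at 72 h. The glial transcription factor gene repo was at most 1.93 RPKM at 40 h and 60 h, against 5.08 and 16.7 RPKM at 72 h. The summed level of 11 photoreceptor markers was 36.5 and 122 RPKM at 40 h, 283, 548 and 92.6 RPKM at 60 h, and 50.2 and 152 RPKM at 72 h. Of the 9 glial markers, 6 rose and 1 fell at 72 h against 60 h, and 1 of the 11 photoreceptor markers rose and 4 fell. Of 5 hemocyte markers the summed level was 366 and 359 RPKM at 40 h, 414, 270.0 and 271 RPKM at 60 h, and 128 and 105 RPKM at 72 h, with Hml at most 0.454 RPKM. At 40 h and 60 h most of that sum was Pxn, which fell at 72 h against 60 h, while crq rose. At 72 h Pxn had 43.9 and 43.5 RPKM, below crq at 82.4 and 58.8 RPKM. The summed level of 6 markers of other lamina neurons was at most 17.6 RPKM at 40 h and 60 h, against 40.4 and 36.4 RPKM at 72 h, and 3 of them rose at 72 h against 60 h. That of 4 GABAergic or monoaminergic markers was at most 32.6 RPKM at 40 h and 60 h, against 91.3 and 74.0 RPKM at 72 h, and 2 of them rose. At 60 h against 40 h, 1 glial marker rose, 2 photoreceptor markers rose and 1 fell, 1 hemocyte marker rose and 2 fell, and 1 marker each of the other lamina neurons and of the GABAergic or monoaminergic list rose. The part of these cells in the results was not tested. In bulk samples, fewer cells of a type and less RNA per cell cannot be told apart.

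The module was higher at 60 h than at 40 h. At 60 h against 40 h, 60 of 71 genes rose and 0 fell, where 25.2% of all 6939 genes tested rose and 22.5% fell (limma on log2(RPKM + 1), Benjamini-Hochberg adjusted p under 0.05). No member reached an unadjusted p under 0.05 with a lower level, and 63 did with a higher one. The estimated change was positive for all 71, with a median of 0.67 on the log2(RPKM + 1) scale, against -0.0023 over all genes tested. Changes on that scale understate the fold change of low genes. In 66 members every 60 h library lay above both 40 h libraries, which held for 33.1% of all genes tested. With the 60 h libraries of higher photoreceptor markers, the first and the second, left out together, 42 members rose and 0 fell, but this leaves 1 library at 60 h, which is assumed to vary like those of the other ages.

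Both subunits took part. Of the large subunit genes, 39 of 46 rose with a median change of 0.70, and of the small subunit genes, 21 of 25 rose with a median of 0.61. The median level of the large subunit was 41.1 and 34.1 RPKM at 40 h, 66.6, 67.0 and 64.8 RPKM at 60 h, and 75.8 and 69.6 RPKM at 72 h. That of the small subunit was 34.4 and 34.6 RPKM at 40 h, 61.5, 67.5 and 63.9 RPKM at 60 h, and 73.9 and 70.0 RPKM at 72 h. The 40 h libraries were lowest for both subunits, with no overlap with the other ages. The large minus small difference of the median log2(RPKM + 1) was 0.25 and -0.02 in the 40 h libraries, 0.11, -0.01 and 0.02 in those of 60 h, and 0.04 and -0.01 in those of 72 h. It had both signs at every age, so neither subunit stood above the other beyond the spread between libraries. The median over all genes tested stayed between 16.5 and 17.7 RPKM.

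**Figure D1:**
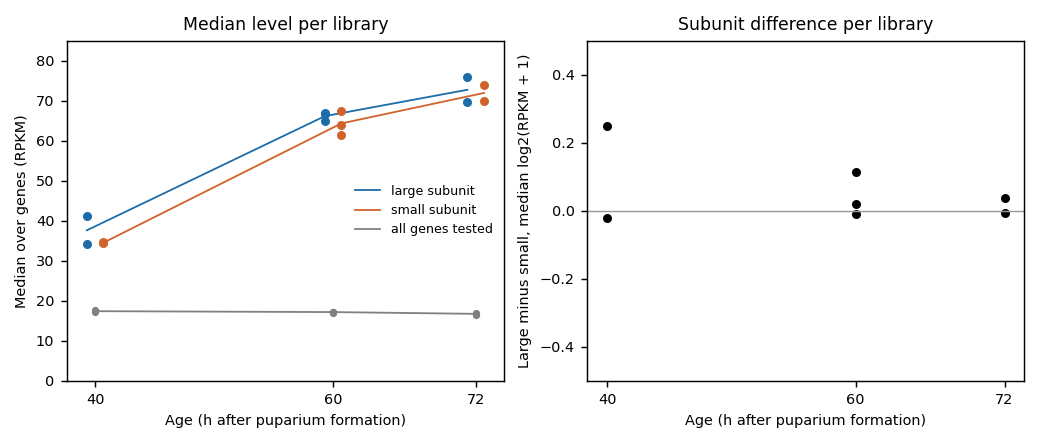
Left, the median level over genes in RPKM for each RNA library (points) and the mean of the library medians (lines) at 40 h, 60 h and 72 h APF, for the large subunit, the small subunit and all genes tested. Right, the large minus small difference of the median log2(RPKM + 1) in each library, which lies between -0.02 and 0.25.

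The largest rise was that of mRpL28, a large subunit protein of the bacterial L28 family. Its level was 37.0 and 34.8 RPKM at 40 h, 119.7, 124 and 109 RPKM at 60 h, and 192 and 163 RPKM at 72 h. The ages did not overlap, and the change at 60 h against 40 h was 1.68 ± 0.11 (SE, limma adjusted p = 6.8e-07). The gene overlaps Gmd in the RefSeq annotation, and the sources used here do not say whether counting used the strand, so reads of the pair may not be separated. The same limit applies to 41 of the 71 members, which overlap another gene. Of those 41, 32 rose, and of the 30 that overlap no other gene, 28 rose.

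The small subunit gene mRpS5, whose bacterial relative lines the path of the mRNA into the ribosome, had 33.6 and 39.1 RPKM at 40 h, 96.1, 106 and 102 RPKM at 60 h, and 142 and 138 RPKM at 72 h. No library of 1 age overlapped those of another, and the change at 60 h against 40 h was 1.46 ± 0.11 (SE, limma adjusted p = 1.5e-06). The gene mRpL55, which encodes a large subunit protein known from mitochondria, stood at 42.7 and 38.0 RPKM at 40 h, 99.2, 112 and 118 RPKM at 60 h, and 175 and 163 RPKM at 72 h. Its 3 ages were likewise apart, with a change of 1.42 ± 0.11 at 60 h against 40 h (SE, limma adjusted p = 2.6e-06). Neither mRpS5 nor mRpL55 overlaps another gene.

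The gene mRpS18C, 1 of 3 relatives of bacterial S18, had 28.8 and 16.7 RPKM at 40 h, 61.0, 72.9 and 55.7 RPKM at 60 h, and 77.0 and 76.5 RPKM at 72 h. Its 40 h libraries lay apart from each other, and both lay below every later library. The change was 1.48 ± 0.20 at 60 h against 40 h (SE, limma adjusted p = 1.3e-04), and it was 1.10 without the second 40 h library. The large subunit gene mRpL17, of the bacterial L17 family, had 37.8 and 33.1 RPKM at 40 h, 88.8, 80.6 and 84.9 RPKM at 60 h, and 102 and 94.7 RPKM at 72 h. It rose by 1.24 ± 0.11 (SE, limma adjusted p = 5.8e-06) at 60 h against 40 h, with the ages apart from one another.

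The stalk of the large subunit, which recruits translation factors in bacterial ribosomes, is represented by mRpL10 and mRpL12. The level of mRpL12 was 71.2 and 68.1 RPKM at 40 h, 153, 130.1 and 127 RPKM at 60 h, and 119.7 and 142 RPKM at 72 h. The 40 h libraries were the lowest and those of the later ages overlapped. The level of mRpL10, the base of the stalk, was 43.6 and 45.3 RPKM at 40 h, 92.0, 83.6 and 96.6 RPKM at 60 h, and 92.6 and 83.3 RPKM at 72 h, with the same order. Both rose at 60 h against 40 h, by 0.96 and 1.01 on the log2 scale. Neither passed at 72 h against 60 h, with changes of -0.07 and -0.04.

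Between 60 h and 72 h most members did not pass the test. In all, 17 of 71 genes rose and 1 fell at 72 h against 60 h, where 16.6% of all genes tested rose and 16.4% fell, and 53 members did not pass. The share of members that rose, 23.9%, was thus closer to the background than at 60 h against 40 h, and the share that fell, 1.41%, was below it. The median change was 0.14, against -0.01 over all genes, with 46 estimates above 0 and 25 below. The large subunit had 11 of 46 rising and 0 falling, with a median of 0.16, and the small subunit had 6 of 25 rising and 1 falling, with a median of 0.12. In 32 members both 72 h libraries lay above all 60 h libraries (28.0% of all genes) and in 10 they lay below (29.5%).

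The count at 72 h against 60 h rested on few libraries and on the scaling. Without the first 72 h library 7 members rose. Without the second, in which the glial markers were highest, 14 rose. The first 72 h library, which then remains, had 570.1 RPKM of summed glial markers, against at most 125 RPKM at 60 h. The part of glial RNA was thus not tested by this omission. Rescaling each library to a common sum (TPM) moved the median change of all genes to -0.24 at 60 h against 40 h, -0.27 at 72 h against 60 h and -0.51 at 72 h against 40 h. Under it 46 members rose and 0 fell in the first comparison, 5 rose and 18 fell in the second, and 33 rose and 5 fell in the last. The shares of all genes called under TPM are not given here, so these counts have no background beside them. Relative to the median of all genes, the median member change under TPM was 0.67, 0.14 and 0.83 in these comparisons, against 0.67, 0.15 and 0.84 as deposited.

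The largest rise at 72 h against 60 h was that of mRpL23, whose bacterial relative borders the exit of the peptide tunnel. Its level was 52.6 and 46.9 RPKM at 40 h, 112, 104 and 108 RPKM at 60 h, and 179 and 176 RPKM at 72 h. The ages did not overlap, and the change was 0.71 ± 0.10 (SE, limma adjusted p = 3.8e-04) after one of 1.11 ± 0.10 at 60 h against 40 h. The gene mRpS17, a relative of an rRNA-binding protein of the bacterial small subunit, had 21.5 and 19.0 RPKM at 40 h, 36.8, 32.7 and 29.6 RPKM at 60 h, and 56.9 and 51.7 RPKM at 72 h. Its change was 0.71 ± 0.14 at 72 h against 60 h (SE, limma adjusted p = 0.0027) and 0.67 ± 0.14 at 60 h against 40 h, so that the steps were of similar size.

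The gene mRpL48, whose human counterpart lies in the central protuberance of the large subunit, had 32.0 and 25.3 RPKM at 40 h, 40.1, 51.7 and 37.9 RPKM at 60 h, and 74.5 and 63.7 RPKM at 72 h. Both 72 h libraries lay above all others, with a change of 0.67 ± 0.16 (SE, limma adjusted p = 0.0089), a call that was lost without the first 72 h library. For mRpL55 and mRpL28 the change at 72 h against 60 h was 0.62 ± 0.11 and 0.59 ± 0.11 (SE, limma adjusted p = 0.0019 and 0.0023). The gene mRpL41, a large subunit protein known from mitochondria, did not pass at 60 h against 40 h, with a change of 0.31 ± 0.14. It rose at 72 h against 60 h by 0.46 ± 0.14 (SE, limma adjusted p = 0.031), a call lost in 7 of 15 alternatives, among them those that leave out 60 h library 2 or 3 or the first 72 h library.

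The 1 member that fell at 72 h against 60 h was mRpS26, a small subunit protein known from mitochondria. It had 39.4 and 34.6 RPKM at 40 h, 71.7, 71.9 and 65.0 RPKM at 60 h, and 50.04 and 44.7 RPKM at 72 h. The 72 h libraries lay between those of 40 h and 60 h and overlapped neither. The change was -0.54 ± 0.12 at 72 h against 60 h (SE, limma adjusted p = 0.0049) and 0.89 ± 0.12 at 60 h against 40 h (adjusted p = 1.1e-04). The gene overlaps no other. Of 15 alternatives the call at 72 h against 60 h was lost in 1, with 60 h libraries 1 and 2 left out together (-0.45, limma adjusted p = 0.17). At 72 h against 40 h it rose by 0.35 ± 0.13 (SE, limma adjusted p = 0.037), a call lost in 10 of 15 alternatives.

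**Figure D2:**
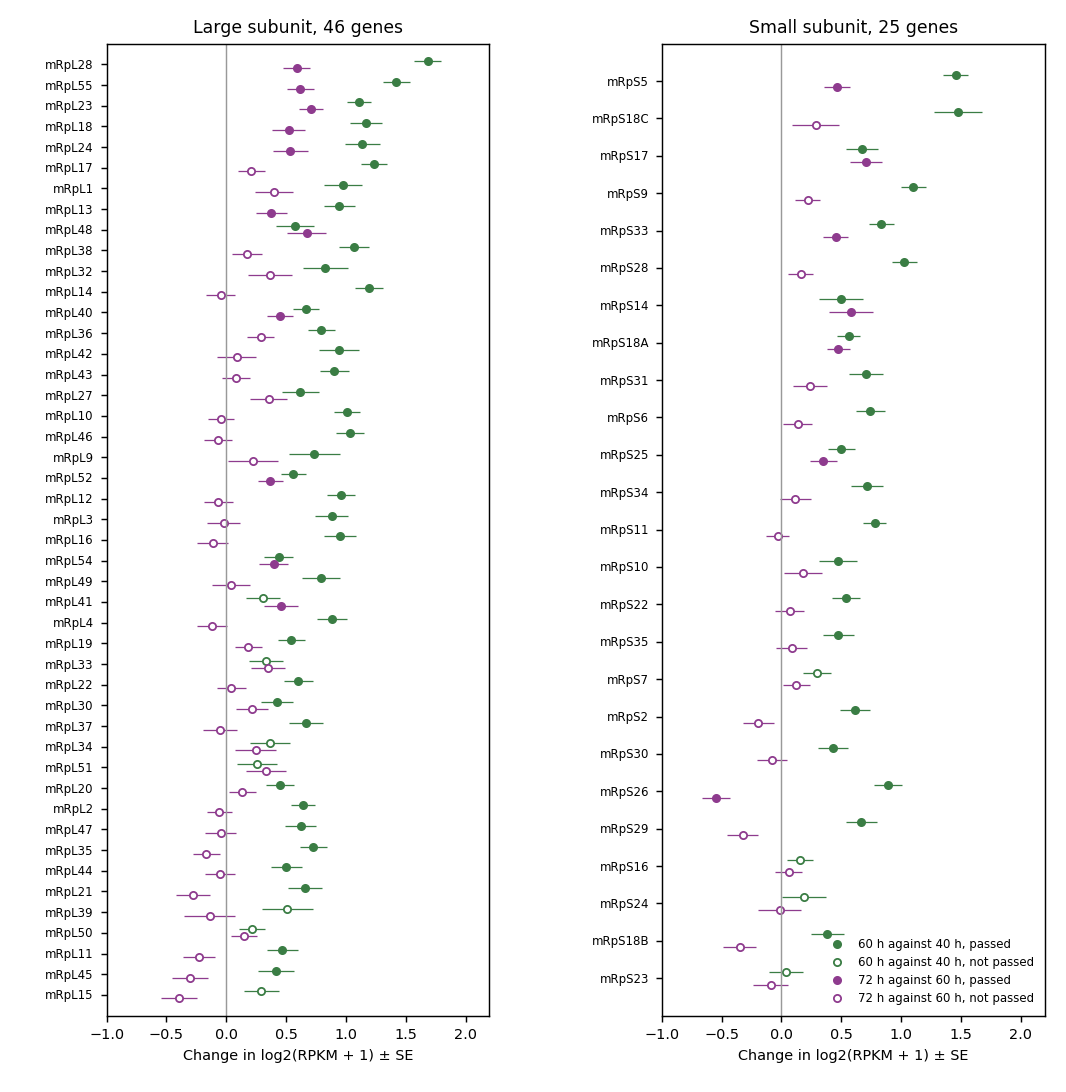
Change in log2(RPKM + 1) with its SE for each large subunit gene (left) and small subunit gene (right), at 60 h against 40 h (green) and 72 h against 60 h (purple), ordered by the change at 72 h against 40 h. Filled points passed an adjusted p of 0.05, and all 71 green points lie above 0 while 25 purple points lie below it.

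The difference between the steps, second minus first, was negative in 65 of 71 members, with a median of -0.60 against -0.03 over all genes tested. It passed the threshold as negative in 29 members and as positive in 0, where 15.3% and 11.6% of all genes did (limma contrast, adjusted p under 0.05). No member had an unadjusted p under 0.05 with a positive difference, and 42 had one with a negative difference. By subunit the counts were 19 of 46 for the large and 10 of 25 for the small, with medians of -0.65 and -0.47. The first step spanned 20 h and the second 12 h, and both use the 60 h libraries. With 60 h libraries 1 and 2 left out together, which leaves 1 library at that age, the difference was negative in 61 members with a median of -0.46, and 1 of the 29 calls remained, that of mRpL10. Of the 29, 15 were called in the other 14 alternatives.

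The most negative difference was that of mRpS26, at -1.44 ± 0.20 (SE, limma adjusted p = 3.6e-04). It was followed by mRpL14, a relative of a bacterial protein at the interface between the subunits, with 30.3 and 36.9 RPKM at 40 h, 77.7, 81.5 and 74.1 RPKM at 60 h, and 79.3 and 71.5 RPKM at 72 h. The 40 h libraries were the lowest and those of 60 h and 72 h overlapped. The change of mRpL14 was 1.19 at 60 h against 40 h and -0.05 at 72 h against 60 h, a difference of -1.24 ± 0.20 (SE, limma adjusted p = 0.0011). The gene mRpL46, whose human counterpart lies in the central protuberance, had 38.9 and 34.3 RPKM at 40 h, 74.9, 82.4 and 71.0 RPKM at 60 h, and 75.8 and 68.8 RPKM at 72 h, again with overlap of the later ages. Its difference between the steps was -1.11 ± 0.19 (SE, limma adjusted p = 0.0019). That of mRpL28 was -1.09. That of mRpS18C was -1.19 ± 0.33 (SE, limma adjusted p = 0.023), a call lost in 6 of 15 alternatives, among them those without 60 h library 1, 60 h library 2 or 72 h library 2. All 5 lost their call with 60 h libraries 1 and 2 left out together, with differences between -1.25 for mRpS26 and -0.85 for mRpS18C.

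**Figure D3:**
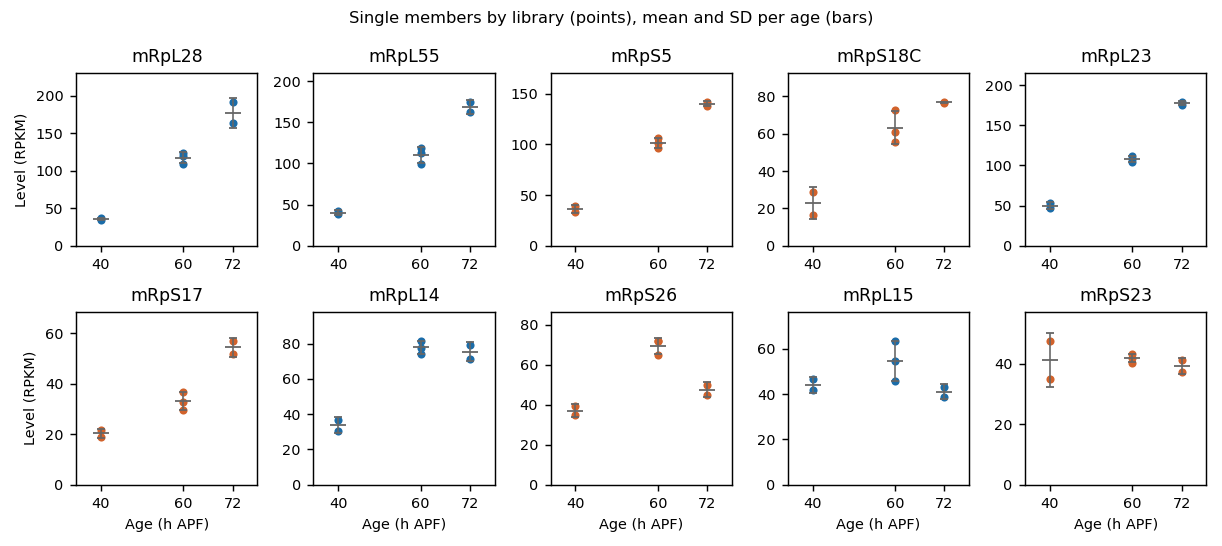
Level in RPKM of 10 members in each RNA library (points, blue for the large and orange for the small subunit) at 40 h, 60 h and 72 h APF, with the mean and SD per age in grey. In mRpL28, mRpL55, mRpS5, mRpS18C, mRpL23 and mRpS17 the 3 ages are apart, mRpL14 has a plateau from 60 h, mRpS26 is highest at 60 h, and mRpS23 overlaps at all ages.

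Over both steps, 61 of 71 members rose and 0 fell at 72 h against 40 h, where 30.2% of all genes tested rose and 29.1% fell. The large subunit had 41 of 46 rising, with a median of 0.85, and the small subunit 20 of 25, with a median of 0.75. In 66 members both 72 h libraries lay above both 40 h libraries, against 38.6% of all genes. The largest changes were those of mRpL28 at 2.27 ± 0.12, mRpL55 at 2.04 ± 0.12 and mRpS5 at 1.92 ± 0.12 (SE). On the RPKM scale mRpL28 averaged 178 ± 20.2 at 72 h, against 35.9 ± 1.55 at 40 h (SD, n = 2 each). The next were mRpL23 at 1.82 ± 0.11 and mRpS18C at 1.76 ± 0.22.

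Of the 10 members that did not pass at 72 h against 40 h, 5 did not pass in any of the 3 comparisons. These were mRpL15, mRpL39, mRpS16, mRpS23 and mRpS24, and each of them overlaps another gene. The gene mRpS23, a small subunit protein known from mitochondria, had 34.8 and 47.5 RPKM at 40 h, 40.3, 41.9 and 43.0 RPKM at 60 h, and 41.1 and 37.2 RPKM at 72 h, with all ages overlapping and a change of -0.05 ± 0.16 at 72 h against 40 h. The gene mRpL15, of a bacterial family bound deep in the large subunit rRNA, had 46.6 and 41.6 RPKM at 40 h, 63.6, 54.8 and 45.7 RPKM at 60 h, and 43.3 and 38.8 RPKM at 72 h. Its 60 h libraries were the most spread and overlapped those of 40 h, and its changes were 0.29 ± 0.15 at 60 h against 40 h and -0.39 ± 0.15 at 72 h against 60 h. The gene mRpS16, a relative of bacterial S16, had 69.3 and 61.7 RPKM at 40 h, 70.3, 70.1 and 78.8 RPKM at 60 h, and 79.8 and 72.8 RPKM at 72 h, with the 60 h libraries just above those of 40 h and overlapping those of 72 h. The changes of mRpL39, related to threonyl-tRNA synthetase, and of mRpS24, a relative of bacterial S3, were 0.37 ± 0.23 and 0.17 ± 0.20 at 72 h against 40 h.

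The other 5 were mRpL11, mRpL21, mRpL45, mRpS18B and mRpS29. The level of mRpS18B, another S18 relative, was 25.1 and 26.4 RPKM at 40 h, 38.0, 34.4 and 29.7 RPKM at 60 h, and 26.0 and 26.8 RPKM at 72 h. The 72 h libraries overlapped those of 40 h and lay below those of 60 h. The level of mRpS29, related to the human GTP-binding protein DAP3, was 33.9 and 26.7 RPKM at 40 h, 48.0, 48.2 and 48.8 RPKM at 60 h, and 39.6 and 37.3 RPKM at 72 h, with the 72 h libraries between those of the other ages. The level of mRpL11, whose bacterial relative lies in the centre that activates translational GTPases, was 26.3 and 26.3 RPKM at 40 h, 33.99, 41.8 and 35.0 RPKM at 60 h, and 31.9 and 30.6 RPKM at 72 h. None of the 3 passed at 72 h against 60 h, with changes of -0.35, -0.32 and -0.23. The gene mRpL45, whose human counterpart contacts the inner membrane at the tunnel exit, had 31.5 and 25.2 RPKM at 40 h, 44.4, 34.6 and 35.6 RPKM at 60 h, and 31.7 and 29.6 RPKM at 72 h, and the bacterial L21 relative mRpL21 had 24.9 and 21.0 RPKM at 40 h, 41.5, 35.1 and 33.9 RPKM at 60 h, and 30.7 and 29.5 RPKM at 72 h. Both had 60 h libraries above those of the other ages.

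Levels in RPKM are per length, and members are set side by side on that scale here. Other effects of length or sequence on the reads were not tested, and 41 members overlap another gene. The mean level at 40 h ran between 18.7 and 82.0 RPKM over the 71 genes, at 60 h between 22.5 and 137.0 RPKM, and at 72 h between 22.0 and 178 RPKM. The ratio of the highest to the lowest mean was 4.39 at 40 h, 6.08 at 60 h and 8.08 at 72 h, and the SD of log2 levels across genes was 0.50, 0.53 and 0.66. The order of the members changed with age, with a rank correlation over the 71 genes of 0.78 between 60 h and 40 h, 0.92 between 72 h and 60 h, and 0.68 between 72 h and 40 h. Genes are not independent replicates, and each gene keeps its length and sequence in all libraries, so these are descriptions.

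By mean over all 7 libraries, which weights 60 h most, the highest large subunit genes, from the top, were mRpL12, mRpL28 and mRpL23, and the highest small subunit genes were mRpS18A, mRpS33 and mRpS5. The lowest were mRpL21, mRpL11 and mRpL45 in the large subunit and mRpS24, mRpS31 and mRpS18B in the small. The order differed by age: at 40 h the highest large subunit genes were mRpL33, mRpL22 and mRpL12, at means of 72.4, 72.3 and 69.7 RPKM, while mRpL28 had 35.9 RPKM and the small subunit gene mRpS5 had 36.3 RPKM. The gene mRpS18A, another S18 relative, whose human counterpart sits in the large subunit, had 79.9 and 84.2 RPKM at 40 h, 127, 124 and 114 RPKM at 60 h, and 172 and 167 RPKM at 72 h. It was the highest member at 40 h, the ages were apart, and it rose at 60 h against 40 h and at 72 h against 60 h, by 0.56 ± 0.10 and 0.48 ± 0.10 (SE). The 3 relatives of bacterial S18 had changes of 1.04 ± 0.11 for mRpS18A, 0.04 ± 0.15 for mRpS18B and 1.76 ± 0.22 for mRpS18C at 72 h against 40 h (SE), of which that of mRpS18B did not pass. The difference between them was not tested.

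The gene mRpS30, also named for the small subunit but in the large subunit of the human mitochondrial ribosome, had 31.0 and 27.4 RPKM at 40 h, 37.0, 42.5 and 39.8 RPKM at 60 h, and 36.5 and 38.7 RPKM at 72 h. It rose by 0.43 ± 0.12 (SE) at 60 h against 40 h and did not pass at 72 h against 60 h. With mRpS18A and mRpS30 counted in the large subunit, 41 of 48 large and 19 of 23 small subunit genes rose at 60 h against 40 h, with medians of 0.67 for both. The gene mRpS33, known from mitochondria, had 63.5 and 57.8 RPKM at 40 h, 112, 107 and 108 RPKM at 60 h, and 160.3 and 139.7 RPKM at 72 h, with the ages apart. The lowest small subunit genes, mRpS24 and mRpS31, were at most 26.4 and 40.9 RPKM in any library.

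By family, 38 of 44 genes shared with bacteria rose at 60 h against 40 h, with a median change of 0.73, and 22 of 27 genes known from mitochondria did, with a median of 0.57. The counts at 72 h against 60 h were 9 of 44 and 8 of 27, and of the 27, mRpS26 fell. A further pair of mitochondrial ribosomal proteins carry other names. The gene tko, the relative of bacterial S12, had 24.4 and 28.7 RPKM at 40 h, 44.6, 46.5 and 34.7 RPKM at 60 h, and 54.9 and 49.8 RPKM at 72 h and rose at 60 h against 40 h by 0.63 ± 0.15 (SE, limma adjusted p = 0.0055), with no pass at 72 h against 60 h. The gene bonsai, the relative of bacterial S15, had 40.4 and 40.5 RPKM at 40 h, 65.1, 49.4 and 46.4 RPKM at 60 h, and 45.2 and 49.98 RPKM at 72 h and passed in none of the comparisons.

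The rRNAs with which these proteins assemble were listed as mt:lrRNA and mt:srRNA. The large rRNA had 3949.7 and 4642 RPKM at 40 h, 7371, 7459 and 4094 RPKM at 60 h, and 11154 and 11521 RPKM at 72 h. One 60 h library, number 3, overlapped the 40 h libraries while the 72 h libraries lay above all others. It did not pass at 60 h against 40 h, with a change of 0.51 ± 0.26, and rose at 72 h against 60 h by 0.90 ± 0.26 (SE, limma adjusted p = 0.023). The small rRNA was listed at 1.41 to 14.7 RPKM, far below the large one, and its level was not read further. Whether the libraries captured either rRNA in proportion to its amount was not tested. The mt:lrRNA values are thus not taken as amounts of rRNA in the ribosome. Of 11 genes on the mitochondrial genome, 2 rose at 60 h against 40 h and 10 at 72 h against 60 h, where 25.2% and 16.6% of all genes tested rose. The median changes of the 11 were 0.50 and 1.15. Their difference between the steps was positive in the median, 0.64, and passed for none of the 11, and that between this list and the ribosomal proteins was not tested.

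Among nuclear genes of mitochondrial translation calls went in both directions, as they did over all genes tested. Of the latter, 25.2% rose and 22.5% fell at 60 h against 40 h, and 16.6% and 16.4% at 72 h against 60 h. Of 9 translation factors, 5 rose and 1 fell at 60 h against 40 h, with a median of 0.48. The elongation factor gene mEFG1 rose by 1.25 ± 0.15 and the release factor gene mRF1 by 1.11 ± 0.20 (SE), while the ribosome recycling factor gene mRRF1 changed by -0.81 ± 0.17, a fall. The 1 gene that passed at 72 h against 60 h was mEFTu1, an elongation factor Tu gene and the most abundant of the list, which fell to 117 and 114 RPKM at 72 h, against 166, 157 and 141 RPKM at 60 h.

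Of 17 mitochondrial tRNA synthetase genes, 6 rose and 1 fell at 60 h against 40 h, where 25.2% of all genes tested rose and 22.5% fell. Their median change was 0.36. At 72 h against 60 h 1 rose and 2 fell, where 16.6% of all genes tested rose and 16.4% fell. The largest rise was that of TyrRS-m, at 1.23 ± 0.20 (SE), and PheRS-m rose in both comparisons, by 0.68 and 0.59. AspRS-m fell in both, with changes of -0.43 and -0.84, and SerRS-m fell at 72 h against 60 h with a change of -0.87. Of 8 genes of mitochondrial DNA expression, 1 passed at 60 h against 40 h, bsf, an RNA-binding protein of the organelle, with a change of 1.10. The gene mTerf3, of the mitochondrial transcription termination factor family, rose at 72 h against 60 h by 0.54, the 1 pass of that list. Beside the shares of all genes, the counts of these short lists are not read as results about them.

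Of 11 genes of mitochondrial protein import, 9 rose at 60 h against 40 h and 3 at 72 h against 60 h, with medians of 0.56 and 0.27. Over all genes tested 25.2% rose in the first comparison and 16.6% in the second. The receptor genes Tom70 and Tom20 had the largest rises at 60 h against 40 h, 1.26 ± 0.11 and 1.07 ± 0.10 (SE). Of 67 nuclear genes of oxidative phosphorylation, 65 rose at 60 h against 40 h and 64 rose and 1 fell at 72 h against 60 h, with medians of 1.08 and 0.62. The largest changes there were those of COX7AL at 60 h against 40 h, 3.20 ± 0.26, and of the cytochrome c gene Cyt-c-p at 72 h against 40 h, 4.46 ± 0.21 (SE). The median member change at 72 h against 60 h, 0.14, was thus below that of oxidative phosphorylation, 0.62, a description without a test.

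The cytosolic ribosome gave other counts. Over all genes tested 25.2% rose and 22.5% fell at 60 h against 40 h, and 16.6% and 16.4% at 72 h against 60 h. Of 85 cytosolic ribosomal protein genes, 0 rose and 9 fell at 60 h against 40 h, and 7 rose and 4 fell at 72 h against 60 h, with medians of -0.0075 and -0.03, against -0.0023 and -0.01 over all genes. Of these 9 falls, the largest were those of RpS5b at -2.83 ± 0.34 and RpLP0-like at -0.88 ± 0.20 (SE). The latter is in the list by its symbol, and whether its product is part of the ribosome was not checked. Under quantile normalization 43 and 44 of the 85 fell in these comparisons, and under TPM 32 and 36 fell. The median change of all genes was -0.0017 and -0.036 under quantile normalization, and -0.24 and -0.27 under TPM. The share of all genes that fell under these scalings is not given here, so these counts have no background beside them. The mitochondrial ribosomal protein genes kept 54 rises and 0 falls at 60 h against 40 h under quantile normalization.

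**Figure D4:**
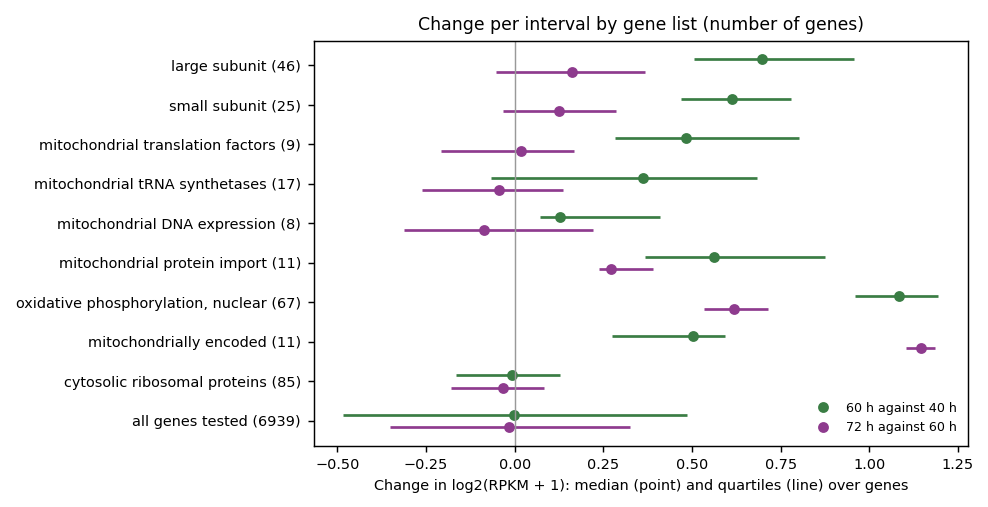
Change in log2(RPKM + 1) at 60 h against 40 h (green) and 72 h against 60 h (purple) by gene list, as the median (point) and the quartiles (line) over the genes of each list, with the number of genes tested in brackets. The medians of the large and small subunit are 0.70 and 0.61 in the first comparison and 0.16 and 0.12 in the second, those of oxidative phosphorylation are 1.08 and 0.62, and all genes tested lie near 0.

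Open chromatin at the start of the genes was a readout from other libraries. The ATAC table lists 26121 peaks, each with the nearest gene and its distance as the authors gave them. Within 1000 bp of a member 48 peaks were listed, at 45 of the 71 genes (29 large and 16 small subunit), and 38 of them overlapped the gene start. A peak shared with a neighbouring gene is counted for the gene the authors listed. Peak levels are reads per kilobase of peak, scaled by the effective library size. The median level of the 48 peaks was 41.7 and 44.4 in the 40 h libraries. It was 49.2 and 41.6 in the 60 h libraries, and 50.2 and 40.7 in the 72 h libraries. The ages overlapped. Peaks overlapping any gene start (6171 in all) had medians of 64.0 and 70.6 in the 40 h libraries, 68.6 and 57.4 in the 60 h libraries, and 57.9 and 51.6 in the 72 h libraries.

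At 60 h against 40 h, 1 of 48 peaks rose and 0 fell, where 10.7% of all 23508 peaks tested rose and 16.0% fell, and 3 had an unadjusted p under 0.05. Of the peaks that overlap any gene start, which are the closer match for the 38 member peaks that do, 3.51% rose and 8.55% fell. None passed at 72 h against 60 h, where 0.723% rose and 4.39% fell, and 1 had an unadjusted p under 0.05 (limma). The shares at any gene start were 0.148% and 3.18%. At 72 h against 40 h, 5 of the 48 rose and 2 fell, where 26.0% of all peaks rose and 29.4% fell, and 5.47% of those at any gene start rose and 32.9% fell. Of the 5, that of mRpS2 overlapped the gene start. Those of mRpL4, mRpL44, mRpL48 and mRpS29 lay 248, 73, 1000 and 57 bp from it, so the gene start share is not matched to them. The 2 that fell overlapped the start. The median change of the member peaks was -0.00043 at 60 h against 40 h, -0.03 at 72 h against 60 h and 0.01 at 72 h against 40 h, against -0.11, -0.21 and -0.31 over all peaks at a gene start. The RNA of the 45 genes with a peak had 38 rises at 60 h against 40 h.

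The peak that rose at 60 h against 40 h lies 248 bp from the start of mRpL4, a relative of a bacterial protein that lines the peptide tunnel, at chr2L:16328672-16328884 as deposited. Its level was 35.1 and 31.5 in the 40 h libraries, 57.7 and 52.8 in the 60 h libraries, and 51.1 and 64.8 in the 72 h libraries. Both 40 h libraries lay below the rest, and the change was 0.71 ± 0.22 at 60 h against 40 h (SE, limma adjusted p = 0.029). A second peak, over the start of mRpL4, passed in no comparison. The RNA of mRpL4 rose at 60 h against 40 h by 0.88 ± 0.13 (SE).

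The other peaks that rose at 72 h against 40 h were those of mRpL44, mRpL48, mRpS2 and mRpS29. The peak of mRpS29 at chr2R:22420067-22420319 had 25.2 and 24.9 in the 40 h libraries, 28.8 and 34.2 in the 60 h libraries, and 45.2 and 44.9 in the 72 h libraries, with the ages apart and a change of 0.82 ± 0.23 (SE, limma adjusted p = 0.011), while the RNA of this gene did not pass in the same comparison. The peak near mRpL48, chr2L:1711462-1712016, lies 1000 bp from the gene, at the edge of the window, and with a window of 250 bp 4 peaks rose. It had 43.4 and 52.3 in the 40 h libraries, 64.3 and 68.7 in the 60 h libraries, and 71.8 and 77.4 in the 72 h libraries and a change of 0.63 ± 0.20. The changes were 0.64 ± 0.25 for mRpS2 and 0.58 ± 0.21 for mRpL44, a relative of ribonuclease III.

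The peaks that fell were those of mRpL33 and mRpL34, relatives of small bacterial large subunit proteins. The peak of mRpL34 at chr2R:16098621-16099226 had 172 and 193 in the 40 h libraries, 156 and 130.4 in the 60 h libraries, and 123 and 101 in the 72 h libraries, with the ages apart and a change of -0.70 ± 0.20 (SE, limma adjusted p = 0.01). That of mRpL33, chrX:4321912-4322919, had 81.7 and 74.8 in the 40 h libraries, 75.05 and 43.7 in the 60 h libraries, and 58.8 and 35.0 in the 72 h libraries, where the first 60 h library overlapped the 40 h range, and a change of -0.77 ± 0.30 (SE, limma adjusted p = 0.045). The RNA of both genes rose at 72 h against 40 h, by 0.61 ± 0.19 and 0.68 ± 0.16 (SE). With 2 libraries per age the peak counts at 72 h against 40 h ranged between 0 and 6 for rises and between 0 and 6 for falls when 1 library was left out. Without the second 72 h library both were 0, and without the first 1 rose and 6 fell. Without the first 40 h library 1 rose and 1 fell, and without the second 1 rose and 0 fell. Leaving out either 40 h library also removed the mRpL4 call at 60 h against 40 h.

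**Figure D5:**
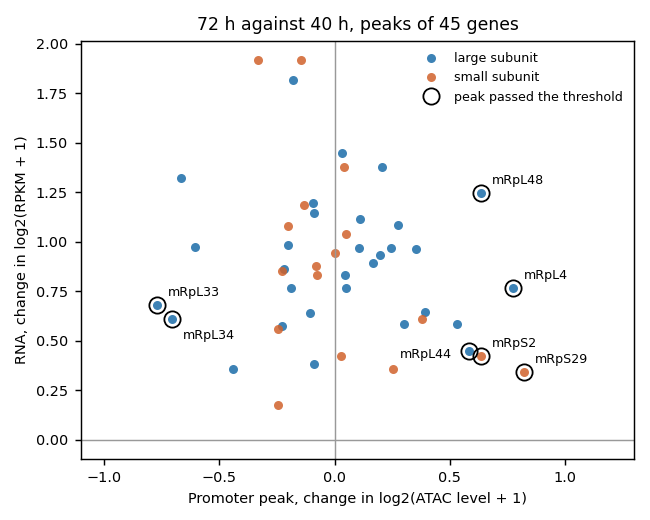
Change at 72 h against 40 h in the level of each of the 48 promoter peaks (horizontal axis, log2(ATAC level + 1)) and in the RNA of its gene (vertical axis, log2(RPKM + 1)), for the large subunit (blue) and the small subunit (orange). The circled peaks passed an adjusted p of 0.05, 5 to the right and 2 to the left of 0, while every gene shown has an RNA change above 0.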

How the data were processed

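RNA levels were deposited in RPKM per gene, per the file headers, in 7 libraries. The ATAC table has no unit label. Its deposited values, multiplied by peak width, gave whole multiples of 1 read (within 0.1), so they were read as RPKM of each peak. RNA values also gave whole reads for all 71 members (within 0.05 of a read). Bowtie2 2.2.9, MACS2 2.1.1, bedtools and edgeR 3.26.8 are named per the submitters' processing notes, with no role for each. The aligner settings, strand use and genome build were not given in the sources used here. All 38 peaks listed at distance 0 from a member hold an end of that gene in RefSeq Release 6.

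Here limma 3.58.1 (R 4.3.3) was fitted to log2(RPKM + 1) over all libraries of an assay, with age as a factor of 3 levels, a variance trend and no replicate block, and tests were two-sided. Genes needed 1 RPKM in 2 libraries (6939 tested, 137 not). The 10% of peaks with the lowest mean were left out (23508 tested, 2613 not). P-values were adjusted over all features by Benjamini-Hochberg at 0.05. Reads recovered from RPKM were tested with voom as an alternative, and called 55 rises at 60 h against 40 h. With 2 or 3 libraries per age, the precision is limited by their number. Members and lists were chosen with earlier results of these data known. Named are the 5 largest changes per comparison and direction, the 3 highest and lowest levels per subunit, stalk genes, genes named against their human subunit, members with a called peak, groups of at most 5 calls, and the 2 largest changes of other lists. Further members were named after their values were seen. Promoter motifs were not searched. Python 3.11.15, pandas 2.3.3, numpy 2.4.6 and matplotlib 3.10.9 were used for summaries and plots.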

Additional observations from a re-analysis of the deposited data

Results flagged for a closer look

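The step at 72 h against 60 h differed from that at 60 h against 40 h in 29 members by the limma contrast of the steps (adjusted p under 0.05), always in the negative direction. The steps differ in length and share the 60 h libraries. The differences, second minus first on the log2(RPKM + 1) scale, were -1.44 for mRpS26, -1.24 for mRpL14, -1.19 for mRpS18C, -1.11 for mRpL46 and -1.09 for mRpL28. They were -1.06 for mRpL10, -1.03 for mRpL12, -1.02 for mRpL17, -0.99 for mRpS5, -0.94 for mRpL21, -0.80 for mRpL55, -0.73 for mRpS18B and -0.70 for mRpL11. The call of mRpL11 was lost in 11 of 15 alternatives, among them each omission of 1 library, and that of mRpS18B in 10. Those of mRpS18C and mRpL55 were lost in 6 and 4, and each of the others listed in at most 2. With the 60 h libraries 1 and 2 left out together, which leaves 1 library at 60 h, mRpL10 alone among the 71 members kept such a call, and the median difference was -0.46, against -0.60 with all libraries.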

How the results depend on the processing

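Each RNA result was recomputed under 15 alternatives. At 60 h against 40 h no alternative gave a fall, and 39 of the 60 calls held under all 15. The count of rises was 47 to 60 with 1 library left out. At 72 h against 60 h, 3 of 18 calls held under all. Rises numbered 5 under TPM scaling, 10 without the variance trend, 11 with voom, 6 with 60 h replicates 1 and 2 left out together and 7 to 19 with 1 library left out. Falls numbered 18, 1, 1, 0 and 1 to 2 in the same order, and 2 under quantile normalization. TPM gave 33 rises and 5 falls at 72 h against 40 h, and single omissions 54 to 61 rises. The shares of all genes called under the alternatives are not given here, so these counts have no background beside them. Negative step differences numbered 19 with voom, 1 without 60 h replicates 1 and 2, and 20 to 35 with 1 library left out. Under TPM the median change of the large subunit was 0.45 for 60 h against 40 h, -0.11 for 72 h against 60 h and 0.34 for 72 h against 40 h, and that of the small subunit 0.37, -0.14 and 0.23, which turns the sign at 72 h against 60 h. There the median of all genes was -0.27 under TPM, against -0.01 as deposited, and that of the members -0.13, against 0.14. Under quantile normalization the large subunit had 0.68 at 72 h against 40 h, and the small subunit 0.51, 0.069 and 0.56 in the 3 comparisons. With 1 library left out, in the same order, the large subunit ranged over 0.57 to 0.84, 0.09 to 0.17 and 0.66 to 0.94, and the small subunit over 0.57 to 0.66, 0.09 to 0.14 and 0.71 to 0.76. The other causes were not tested.

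For peaks, rises at 60 h against 40 h were 0 under quantile normalization and 0 to 2 with 1 library left out, and falls 0 to 1. Falls at 72 h against 60 h were 0 to 3. At 72 h against 40 h rises were 0 to 6 and falls 0 to 6, and falls were 0 under quantile normalization.

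Deviations of same-numbered libraries from their age's mean correlated at -0.087 to 0.216 for RNA, so the numbers were not taken as pairs. For ATAC they correlated at 0.546 between 60 h and 72 h, but at -0.468 between 40 h and 60 h and -0.111 between 40 h and 72 h. With 2 libraries per age, exchanging the 40 h numbers turns the sign of the latter correlations, to 0.468 and 0.111. Deviations were thus shared between 60 h and each other age, and little between 40 h and 72 h. The fit of the report has no term for this. With the replicate block, RNA calls were 61 rises at 60 h against 40 h, 13 rises and 2 falls at 72 h against 60 h, 60 rises at 72 h against 40 h and 24 negative step differences, and peak calls at 72 h against 40 h were 5 rises and 3 falls. Crossing the 40 h numbers for ATAC, chosen after seeing the data as was voom, gave 2 rises at 60 h against 40 h and 4 falls at 72 h against 40 h, against 1 and 2 without a block. Of 315 values of 21 named comparisons under alternatives, 302 kept direction and call, 13 kept direction only and 0 reversed. These 21 were the largest changes past the threshold in each comparison. Smaller named changes, such as that of mRpL41 at 72 h against 60 h, are not in this count, which does not describe their stability. Motif searches were not run.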
